A study of Mus musculus with 15 samples.

Results

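Macrophages grown from the bone of mice lacking ROBO4 were compared with macrophages of wild-type mice by messenger RNA sequencing, over 10 of the 15 libraries of the study: 5 from ROBO4 knockout mice (ROBO4-/-, here ROBO4_KO) and 5 from wild-type mice (WT). The members of the comparison were chosen by genotype and by no measured value. The remaining 5 libraries came from VLDLR knockout mice (VLDLR-/-, here VLDLR_KO) and are used as a second reference. All libraries carry the strain label C57BL6J and were made from cells kept for 14 days with M-CSF at 20 ng/ml, with no untreated arm. The labels do not give the knockout allele or how it was made, the age or sex of the mice, or whether libraries of a group came from separate mice or cultures, so p-values measure the spread between these libraries, which may be technical.

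Sample codes were written in 2 ways, some with a digit ahead of a letter B and some with it behind, here called the before-B and after-B forms, whose meaning the labels leave unsaid. WT replicates 1 and 2 and ROBO4_KO replicates 3 to 5 have the digit after B, and WT replicates 3 to 5 and ROBO4_KO replicates 1 and 2 have it before B. The form was therefore a covariate in the test, and the difference within each form is given beside the pooled one.

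ROBO4 is a cell-surface receptor of the Roundabout family, whose other members bind Slit proteins and steer growing axons. It is best known from the endothelium, where it helps to keep vessels tight and restrains sprouting. M-CSF is the growth factor that drives bone marrow precursors to become macrophages, phagocytes that take up lipoproteins and cell debris and secrete cytokines and matrix proteins.

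Robo4 itself (chromosome 9, 37401897 to 37414023, in build GRCm38.p6 as the submitters' processing notes name it) gave 2, 4, 0, 0 and 0 counts in WT replicates 1 to 5 and 0 in each ROBO4_KO library. The VLDLR_KO libraries gave 0, 0, 0, 1 and 0 counts. A total of 3 counts, the most that a count of 0 allows, correspond to 0.158 to 0.165 CPM here (counts scaled to a common library size), and 3 of the 5 WT libraries were as low as the knockouts, so the Robo4 counts are too few to check the genotype. Vldlr, the gene removed in the other knockout and encoding a lipoprotein receptor, gave 5, 9, 36, 10 and 14 counts in WT and 10, 38, 11, 2 and 6 in ROBO4_KO (log2 fold change 0.08, adjusted p = 0.970).

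The 10 libraries held 18337290 to 19005966 estimated counts. Replicates differed by 5.705 to 95.8 times the counting noise (chi-square per degree of freedom), so no pair looked like repeats of 1 library. Of the 21 macrophage identity genes, among them Csf1r, Adgre1 and Cd68, all were tested and their summed level was 25100 to 34100 CPM in WT and 26200 to 33000 CPM in ROBO4_KO. The first principal component (56.5% of the variance) followed the code form and the second (14.8%) the genotype. Genes of fibroblasts and matrix summed to 71.3 to 556 CPM in WT and 27.2 to 510 CPM in ROBO4_KO, highest in WT replicate 3 and ROBO4_KO replicate 2. WT replicate 3 also gave 0 CPM for all 4 Y-linked genes tested, among them Ddx3y and Eif2s3y, against 58.4 CPM or more of Ddx3y in the other 9 libraries. The WT libraries thus differed among themselves in Y-linked RNA, while each ROBO4_KO library held it (127 to 187 CPM summed over the 4 genes). For levels such as those of the fibroblast genes, fewer cells of a type and less RNA per cell cannot be told apart in bulk RNA.

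Loss of ROBO4 went with a small set of changed genes. Of 11464 genes tested, 165 differed between ROBO4_KO and WT (1.44%, edgeR's quasi-likelihood test, Benjamini-Hochberg adjusted p under 0.05, called genes below), 76 higher (0.663%) and 89 lower (0.776%) in ROBO4_KO. Without adjustment, 1541 genes had p under 0.05. At least a 2-fold difference was seen for 33 of the higher and 27 of the lower genes, and the median over all tested genes was 0.00 on the log2 scale. Of the called genes, 163 had the same sign within both code forms, Fosb and Cxcl2 being the exceptions. The call pools the same libraries, so this agreement is partly set by the call and is not a replication. Among the called genes, 90 had no overlap between the 5 ROBO4_KO and 5 WT libraries, as did 250 of all tested genes (2.18%).

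The count of calls rested in part on WT replicates 1 and 2, the after-B WT libraries: 81 genes were called without WT replicate 1 and 85 without WT replicate 2. Without both, an alternative added after the data were seen, 40 were called, 34 of them among the 165, and 12 of the 40 were on chromosome 9. No after-B WT library is then left, so these fold changes rest on the before-B libraries, as in those libraries alone. Without WT replicate 3 or ROBO4_KO replicate 2, the libraries with the most fibroblast RNA, 128 and 117 genes were called. For single genes, the libraries whose removal, each alone, ended a call are named below with the adjusted p-values without them.

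Chromosome 9, which carries Robo4, held 49 of the 165 called genes. That was 7.64% of its 641 tested genes, 17 higher and 32 lower in ROBO4_KO, against 1.07% of the 10823 genes elsewhere and 1.44% of all genes tested. No other chromosome exceeded 2.1% (chromosome 14), and chromosomes 16 and 18 had no called gene. Groups that did not overlap were found for 8.58% of chromosome 9 genes. The share on chromosome 9 was above the share elsewhere under each of the 21 alternatives run. The labels do not give the strain in which the allele was made. The lost receptor and chromosome 9 sequence of another strain carried with its allele therefore cannot be told apart as sources of these differences. Some genes of this chromosome, such as Cadm1, Cox7a2 and Mcam, lay on the same side of WT in VLDLR_KO. For these a difference of the WT libraries from both knockouts cannot be told apart either. Others, such as Rpl29, Dusp7 and Alas1, did not (values below).

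**Figure D1:**
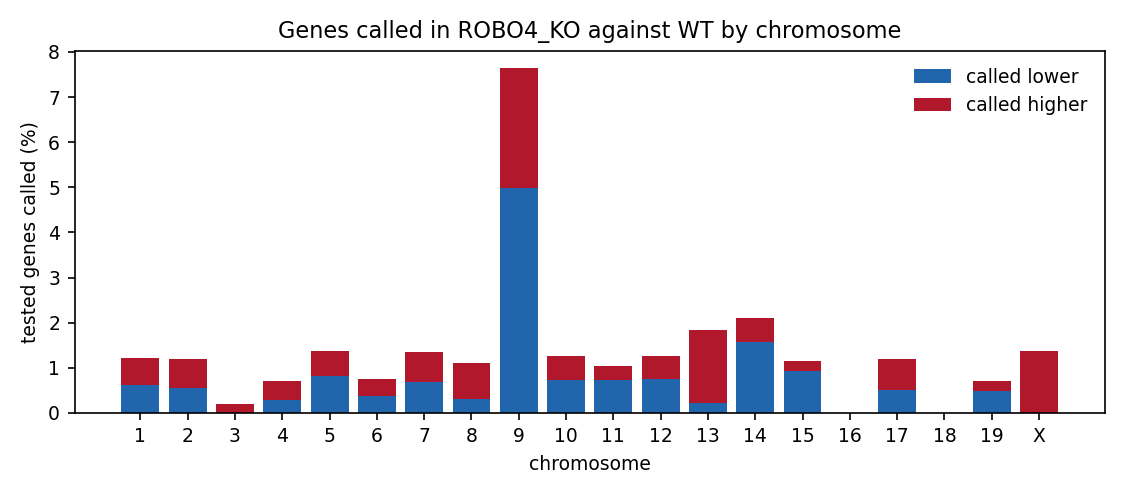
Share of tested genes called in ROBO4_KO against WT (percent, vertical axis) for each chromosome (horizontal axis), with genes called lower in blue and higher in red. Chromosome 9 stands at 7.64% and the next highest, chromosome 14, at 2.1%.

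Within chromosome 9 the calls were unevenly placed. Within 5 Mb of Robo4, 6 of 33 tested genes were called (18.2%), within 10 Mb 15 of 82 (18.3%), within 20 Mb 22 of 213 (10.3%) and beyond 20 Mb 27 of 428 (6.31%). Of the 15 within 10 Mb, 13 lay at larger coordinates than Robo4. That side also held most of the 82 tested genes, so nothing is read from this count. In steps of 10 Mb the share was highest from 40 to 50 Mb (15 of 60 genes, 25%), with 13.1% from 60 to 70 Mb, 11.9% from 70 to 80 Mb and 8.49% from 100 to 110 Mb. From 90 to 100 Mb and from 120 to 130 Mb no gene was called. The median log2 fold change of the 82 genes within 10 Mb was -0.02, against 0.00 over all genes, with 4 called higher and 11 lower. Among before-B libraries alone 1 gene within 10 Mb was called, and among after-B libraries alone 10.

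**Figure D2:**
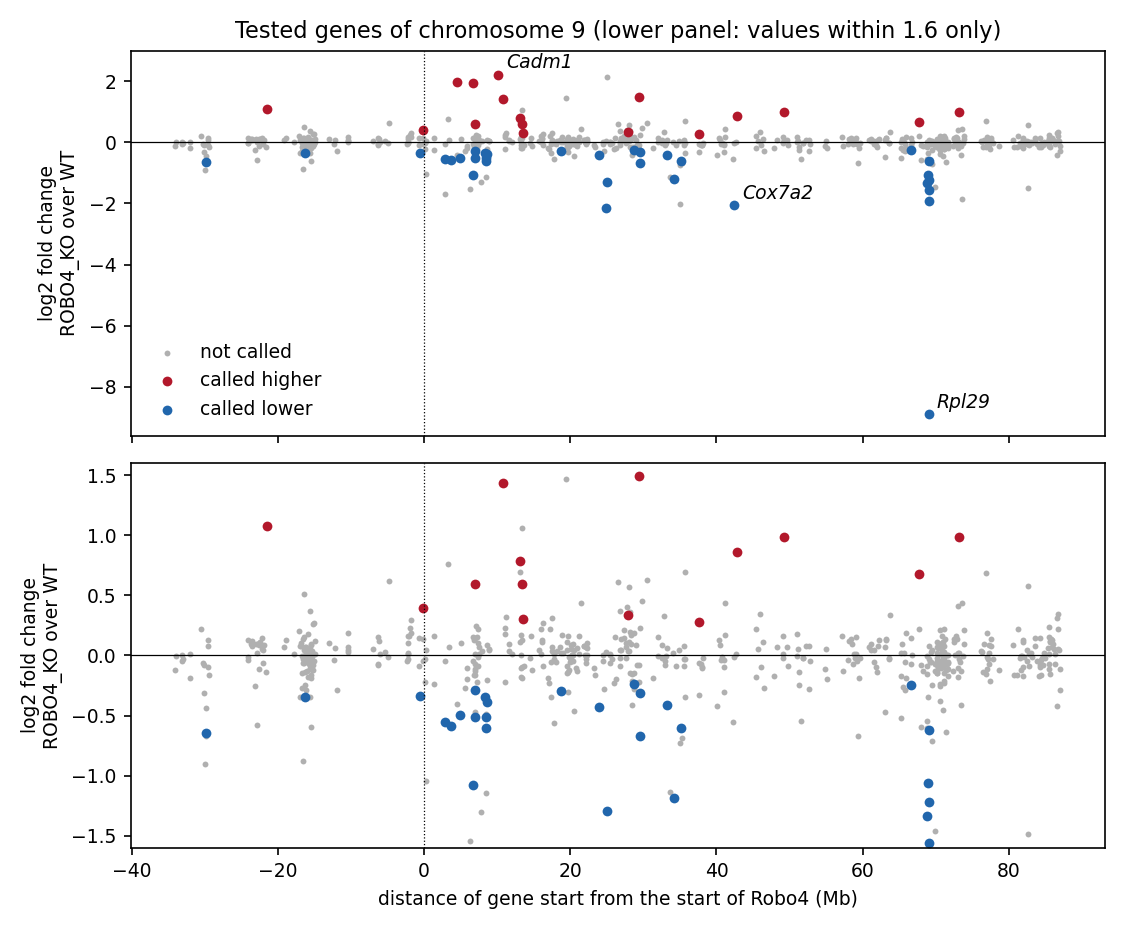
Log2 fold change of ROBO4_KO over WT (vertical axis) for the 641 tested genes of chromosome 9 by distance from Robo4 in Mb (horizontal axis), with genes called higher in red and lower in blue and the lower panel enlarged to values within 1.6. Called genes lie on both sides of 0, Rpl29 being the lowest at -8.91 and Cadm1 the highest at 2.22.

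The genes called nearest to Robo4 include transporters, signalling inhibitors and a sterol enzyme. Slc37a2, a sugar-phosphate transporter of macrophage endoplasmic reticulum and 0.170 Mb from Robo4, gave 355, 369.6, 349.8, 381 and 336 CPM in WT replicates 1 to 5 and 439, 436, 527, 498 and 502 CPM in ROBO4_KO replicates 1 to 5. Every ROBO4_KO library was above every WT library (log2 fold change 0.39 with SE 0.0569, adjusted p = 0.00617, 0.30 in the before-B and 0.49 in the after-B libraries). Ubash3b, a phosphatase that dampens receptor signalling, had 93.02, 105, 70.7, 73.7 and 64.8 CPM in WT replicates 1 to 5 and 42.6, 47.8, 75.5, 64.97 and 63.7 CPM in ROBO4_KO replicates 1 to 5. The 2 after-B WT libraries were highest and the 2 before-B ROBO4_KO libraries lowest, with overlap of the groups between the forms (log2 fold change -0.58 with SE 0.0695, adjusted p = 0.00213, -0.63 before B and -0.54 after B). Gramd1b, which carries cholesterol from the plasma membrane to the endoplasmic reticulum, fell from 129 ± 17.9 to 90.3 ± 8.26 CPM (log2 fold change -0.56 with SE 0.0800, adjusted p = 0.00617) and Sc5d, a desaturase late in cholesterol synthesis, from 96.4 ± 12.7 to 65.3 ± 10.9 CPM (log2 fold change -0.50 with SE 0.0674, adjusted p = 0.00446), neither with overlap of the groups. Ei24, an endoplasmic reticulum protein first found as induced by p53, fell by 0.34 on the log2 scale (adjusted p = 0.0109). Ei24 lost its call without WT replicate 1 (adjusted p 0.0560).

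Between 6.73 and 6.94 Mb from Robo4, neighbouring genes moved in opposite directions. Mcam, an adhesion molecule of vessels and melanoma, gave 0.561, 1.32, 1.31, 0.743 and 1.34 CPM in WT replicates 1 to 5 and 3.47, 4.05, 4.68, 3.56 and 4.42 CPM in ROBO4_KO replicates 1 to 5. It was low throughout, and each ROBO4_KO library was above each WT library (log2 fold change 1.93 with SE 0.25, adjusted p = 0.00341, 1.73 before B and 2.16 after B). Cbl, a ubiquitin ligase that takes down activated receptors such as that for M-CSF, had 223, 292, 166, 187 and 102 CPM in WT replicates 1 to 5 and 91.7, 72.2, 115, 104 and 105 CPM in ROBO4_KO replicates 1 to 5. Its WT values were spread over a wide range and WT replicate 5 lay among the ROBO4_KO values (log2 fold change -1.07 with SE 0.16, adjusted p = 0.00783, -0.89 before B and -1.25 after B). Vps11, a subunit of the vesicle-tethering complexes of the lysosomal route, fell from 109 ± 12.2 to 85.6 ± 13.9 CPM (log2 fold change -0.28 with SE 0.0492, adjusted p = 0.0163). Vps11 lost its call without WT replicate 1 or 2 (adjusted p 0.0682 to 0.0790).

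Cadm1 was the most significant rise on the chromosome. It encodes an immunoglobulin-like adhesion molecule and lies 10.1 Mb from Robo4 (chromosome 9, 47530170 to 47862280). It gave 115, 112, 132, 179 and 164 CPM in WT replicates 1 to 5 and 706, 808, 513, 506 and 529 CPM in ROBO4_KO replicates 1 to 5. The lowest ROBO4_KO library was above the highest WT library by a wide margin, and in both groups the before-B libraries were the higher ones. The rise was 4.66-fold (log2 fold change 2.22 with SE 0.0828, adjusted p = 1.23e-07, 2.25 before B and 2.19 after B). Il18, a cytokine of the interleukin 1 family 13.2 Mb from Robo4, had 9.93, 9.41, 6.53, 9.81 and 9.57 CPM in WT replicates 1 to 5 and 14.97, 13.2, 17.4, 17.9 and 17.2 CPM in ROBO4_KO replicates 1 to 5, again without overlap (log2 fold change 0.78 with SE 0.12, adjusted p = 0.00676, 0.71 before B and 0.86 after B).

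Farther along the chromosome, Tpm1 (tropomyosin, which lines actin filaments) fell from 119 ± 13.7 to 73.5 ± 5.96 CPM (log2 fold change -0.67 with SE 0.0864, adjusted p = 0.00313). Cox7a2, a subunit of cytochrome c oxidase, had 47.2, 42.5, 52.4, 55.4 and 70.7 CPM in WT replicates 1 to 5 and 11.6, 12.5, 12.6, 14.3 and 11.8 CPM in ROBO4_KO replicates 1 to 5, so that no WT library came near the ROBO4_KO values (log2 fold change -2.04 with SE 0.12, adjusted p = 8.38e-06, -2.3 before B and -1.79 after B). Fat3, a large cadherin, and Myo6, an unconventional myosin that moves toward the minus end of actin, were higher in ROBO4_KO. Fat3 gave 15.4, 20.7, 60.1, 57.9 and 42.6 CPM in WT replicates 1 to 5 and 99.3, 107, 52.3, 31.4 and 43.1 CPM in ROBO4_KO replicates 1 to 5, where the rise lies within each form and the forms overlap (log2 fold change 1.08 with SE 0.15, adjusted p = 0.00596, 0.95 before B and 1.23 after B). Myo6 rose from 19.7 ± 7.297 to 31.1 ± 9.52 CPM (log2 fold change 0.86 with SE 0.14, adjusted p = 0.0134). Myo6 lost its call without WT replicate 1 or 2 (adjusted p 0.0616 to 0.0648). Aph1b, a subunit of the gamma-secretase complex, rose from 14.7 ± 1.77 to 41.7 ± 5.03 CPM (log2 fold change 1.49 with SE 0.10, adjusted p = 2.93e-05). The sum with the related gene Aph1c, 192 ± 25.9 CPM in WT and 210 ± 43.05 CPM in ROBO4_KO, was not called (log2 fold change 0.13 with SE 0.14, adjusted p = 0.769). Aph1b is a small part of that sum, so the sum cannot show which gene the reads came from, and this remains uncertain.

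A cluster of 7 called genes lay near 69.02 Mb from Robo4, from Alas1 to Parp3, picked after values were seen, and all 7 were lower in ROBO4_KO. In the same stretch Poc1a (-0.35) and Acy1 (0.08) were tested and not called. Among the 7 is Rpl29, the source of whose reads is uncertain (below). Alas1, which makes the first committed step of haem synthesis, gave 274, 286, 97.4, 95.5 and 82.1 CPM in WT replicates 1 to 5 and 49.6, 45.6, 98.6, 83.8 and 75.02 CPM in ROBO4_KO replicates 1 to 5. The before-B ROBO4_KO libraries were the lowest of the 10 and the after-B WT libraries the highest, and WT replicates 3 to 5 overlapped ROBO4_KO replicates 3 to 5 (log2 fold change -1.34 with SE 0.14, adjusted p = 0.000802, -0.95 before B and -1.7 after B). Dusp7, a phosphatase of ERK kinases, had 58.1, 58.6, 109, 105 and 117 CPM in WT replicates 1 to 5 and 45.5, 54.7, 24.6, 32.1 and 32.5 CPM in ROBO4_KO replicates 1 to 5, with no overlap (log2 fold change -1.06 with SE 0.0877, adjusted p = 0.000118). Abhd14b, a lysine deacetylase of the hydrolase family, gave 16.5, 16, 17.5, 16.4 and 19.9 CPM in WT replicates 1 to 5 and 5.77, 6.54, 5.74, 5.65 and 4.88 CPM in ROBO4_KO replicates 1 to 5, also with no overlap (log2 fold change -1.56 with SE 0.0916, adjusted p = 6.25e-06). The neighbours Abhd14a (-1.93), Pcbp4 (-1.22, an RNA-binding protein) and Parp3 (-0.62, a DNA repair enzyme) fell on the log2 scale with adjusted p of 0.00909, 0.00747 and 0.0109. Parp3 lost its call without WT replicate 1 (adjusted p 0.0601).

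The largest fitted rise and fall of all tested genes fell on a pair of related genes. Rpl29, a protein of the large ribosomal subunit (chromosome 9, 106421463 to 106431568), gave 385, 356, 375, 403 and 459 CPM in WT replicates 1 to 5 and 0.695, 0.675, 0.669, 1.05 and 0.925 CPM in ROBO4_KO replicates 1 to 5. Gm8210 (chromosome 1, 43189057 to 43189765), listed as a predicted pseudogene and, in the authors' table, with the domain family of Rpl29's protein, gave 0, 0.115, 0.157, 0.106 and 0 CPM in WT replicates 1 to 5 and 327, 341, 317, 333 and 329.8 CPM in ROBO4_KO replicates 1 to 5. In each group 1 gene was nearly silent and the other was among the well-expressed genes. The fold changes were -8.91 for Rpl29 (adjusted p = 1.04e-11) and 11.97 for Gm8210 (adjusted p = 1.2e-11) on the log2 scale. The counts of both added together were 385, 356, 375, 403 and 459 CPM in WT and 328, 342, 318, 334 and 331 CPM in ROBO4_KO (log2 fold change -0.24 with SE 0.0632, adjusted p = 0.122). The sum did not pass the test, although its 5 ROBO4_KO values were all below the 5 WT values. The likeness of the 2 sequences was not computed here. Reads that match a gene and a close copy can be split either way by the counting, so the share that belongs to each is uncertain. In VLDLR_KO, Rpl29 was at 402, 779, 385, 378 and 409 CPM and Gm8210 at 0.163, 0, 0.211, 0.167 and 0 CPM, the pattern of WT.

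Other families of related genes behaved in both ways when summed. For Tmem254a, Tmem254b and Tmem254c the sum fell as Tmem254b did (log2 fold change -1.07 with SE 0.0624, adjusted p = 1.05e-05), and for Entpd4 and Entpd4b, nucleotide-cleaving enzymes of the Golgi, the sum fell too (log2 fold change -0.68 with SE 0.0505, adjusted p = 8.01e-05). The 4 Dynlt1 copies, light chains of the dynein motor, rose as a sum (log2 fold change 0.79 with SE 0.10, adjusted p = 0.00382) by less than Dynlt1b alone (1.7). Lilr4b and Lilrb4a, immunoglobulin-like receptors of myeloid cells, fell as a sum (log2 fold change -0.32 with SE 0.0599, adjusted p = 0.0292). That call was lost when any of WT replicates 1 and 2 and ROBO4_KO replicates 1, 2, 4 and 5 was left out (adjusted p 0.0550 to 0.143). Hmgb1 with Gm21596 gave no call (log2 fold change 0.24 with SE 0.0925, adjusted p = 0.287). In VLDLR_KO minus WT, the Tmem254 sum was at -1.27 and the Dynlt1 sum at 1.16 on the log2 scale. Neither was called between the knockouts (adjusted p = 0.312 and 0.271). The Entpd4 sum was at -0.28 and was called lower in ROBO4_KO than in VLDLR_KO (-0.40, adjusted p = 0.000457). The sum of Lilr4b and Lilrb4a was at -0.15 and that of Hmgb1 with Gm21596 at 0.25. These sums were chosen after the data were seen.

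**Figure D3:**
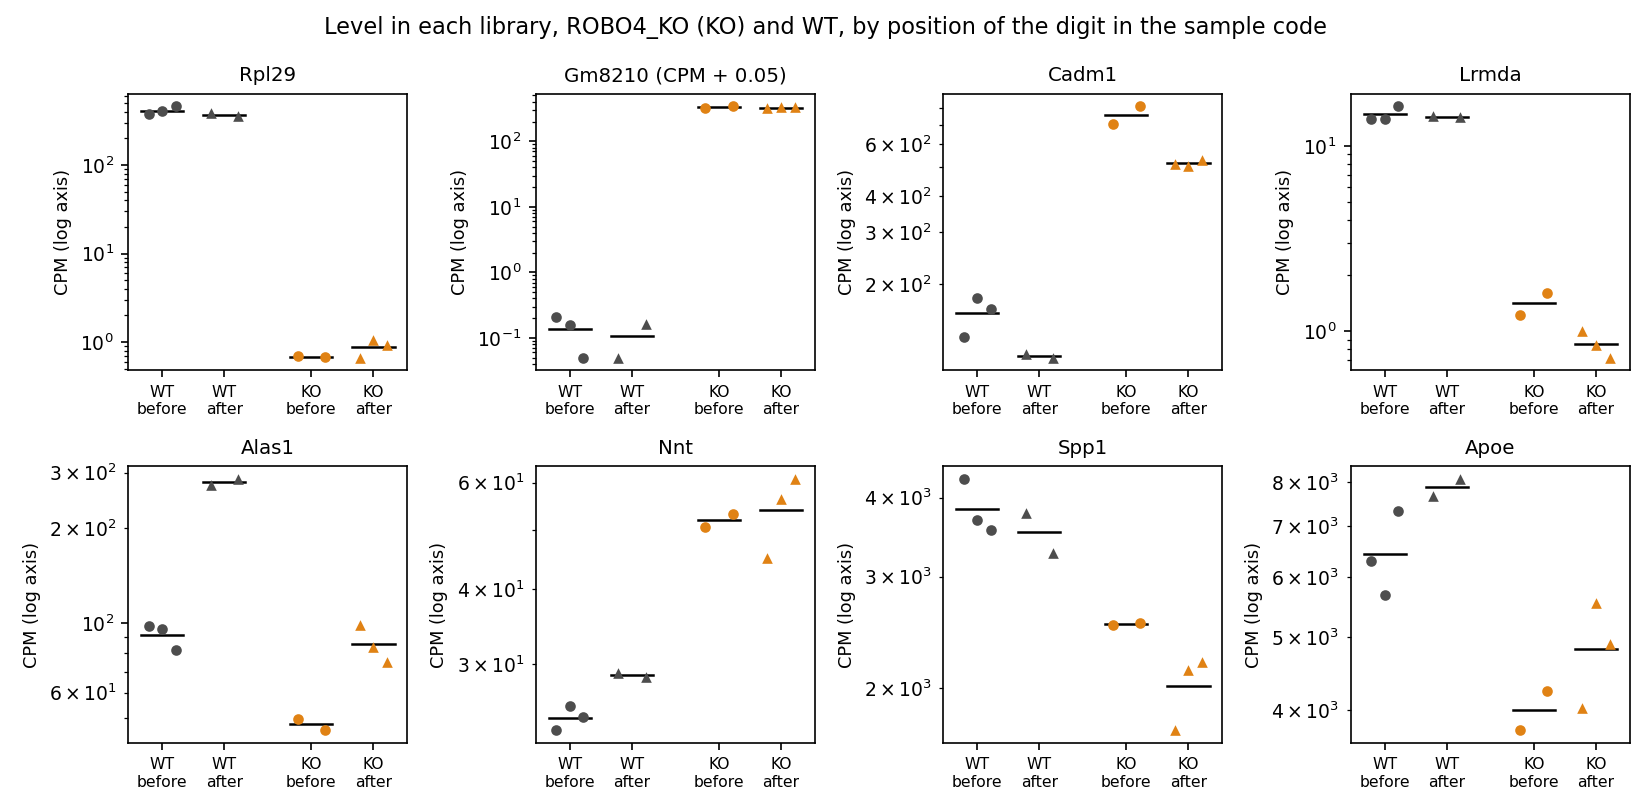
Level in CPM (vertical axes, log scale, with 0.05 added for Gm8210) of 8 genes in each WT and ROBO4_KO (KO) library, by code form (circles before B, triangles after B), with bars at the means. Rpl29 and Gm8210 are at opposite ends in the 2 groups, and Alas1 alone of the 8 overlaps between them.

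Predicted genes named for a retroviral envelope domain were among the called genes. Such genes are remains of endogenous retroviruses, which M-CSF macrophages can transcribe, and their copies share sequence. Of 33 in the table, 24 passed the filter on low counts and 13 were called, all higher (0.663% over all genes). Several of these, such as Gm41885, Gm41035, Gm42102 and Gm46221, were at 0.170 to 0.303 CPM in WT and were tested because of their level in ROBO4_KO, so nothing is read from the count. The group was formed after values were seen. Gm41885 (chromosome 19, 60925722 to 60933971) gave 0.449, 0.401, 0, 0 and 0 CPM in WT replicates 1 to 5 and 10.3, 10.4, 37.2, 32.6 and 55.6 CPM in ROBO4_KO replicates 1 to 5. Gm43828 (chromosome 5, 24217878 to 24232438) gave 9.201, 6.08, 2.61, 2.81 and 4.92 CPM in WT replicates 1 to 5 and 22.98, 28.7, 41.7, 64.4 and 105 CPM in ROBO4_KO replicates 1 to 5. For both genes the after-B ROBO4_KO libraries were highest and no WT library reached the ROBO4_KO range. The gene listed by its NCBI identifier 105246811 was the most abundant that was called, going from 134 ± 42.9 to 241 ± 72.4 CPM. Summed over all 33 genes, whether or not they passed the filter, the level was 508, 510.2, 352, 293 and 286 CPM in WT and 455, 537, 734, 1117 and 1383 CPM in ROBO4_KO (log2 fold change 0.88 with SE 0.16, adjusted p = 0.0253, 0.68 before B and 1.09 after B). WT replicates 1 and 2 were within the range of the before-B ROBO4_KO libraries on this sum. Its call was lost when any of WT replicates 1, 2, 4 and 5 and ROBO4_KO replicates 2 and 4 was left out (adjusted p 0.0541 to 0.116). The VLDLR_KO libraries averaged 738 ± 298 CPM. Gm42031, a predicted gene outside the group, was at 0 in all 5 WT libraries. It gave 14.4, 1.45, 26.5, 57.2 and 41.3 CPM in ROBO4_KO replicates 1 to 5. The mean of 28.2 CPM was at least 173-fold above 3 counts per WT library, with ROBO4_KO replicate 2 far below that mean. Before B alone it was not called (adjusted p = 0.124). The VLDLR_KO libraries averaged 31.6 CPM of it (ROBO4_KO minus VLDLR_KO -0.19, adjusted p = 0.802).

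Away from chromosome 9, Lrmda fell in every ROBO4_KO library (chromosome 14, 22019502 to 23056088). It takes part in melanocyte differentiation. It gave 14.5, 14.3, 13.9, 14.1 and 16.4 CPM in WT replicates 1 to 5 and 1.23, 1.61, 1.003, 0.837 and 0.719 CPM in ROBO4_KO replicates 1 to 5, 13.2-fold lower with no overlap (log2 fold change -3.72 with SE 0.16, adjusted p = 5.84e-07, -3.37 before B and -4.07 after B). Emc10, a subunit of the complex that inserts proteins into the endoplasmic reticulum membrane, had 67.3, 59.99, 63.4, 56.5 and 65.5 CPM in WT replicates 1 to 5 and 29.9, 37.1, 38.4, 39.5 and 37.9 CPM in ROBO4_KO replicates 1 to 5. All ROBO4_KO libraries lay below all WT libraries (log2 fold change -0.80 with SE 0.0748, adjusted p = 0.000283). Tns1, which ties integrins to actin, fell from 98.3 ± 9.95 to 44.3 ± 11.99 CPM (log2 fold change -1.16 with SE 0.17, adjusted p = 0.00633) and Zfp932, a zinc finger protein, from 24.2 ± 2.94 to 13.7 ± 1.61 CPM (log2 fold change -0.76 with SE 0.0654, adjusted p = 0.000151), both with no overlap.

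Nnt, the mitochondrial enzyme that makes NADPH from NADH, was higher in ROBO4_KO. The C57BL/6J strain is known for a deletion in this gene, and every library here carries the label C57BL6J. It gave 29.1, 28.6, 23.3, 25.6 and 24.6 CPM in WT replicates 1 to 5 and 50.7, 53.1, 44.98, 56.3 and 60.8 CPM in ROBO4_KO replicates 1 to 5, with no overlap (log2 fold change 1.0 with SE 0.0824, adjusted p = 0.000118, 1.08 before B and 0.91 after B). The VLDLR_KO libraries gave 53.3, 42.9, 62.8, 53.04 and 60.96 CPM. Wdfy1, an endosomal adaptor of Toll-like receptor signalling, gave 19.6, 26.7, 20.8, 16.3 and 16.4 CPM in WT replicates 1 to 5 and 54.8, 48.2, 56.5, 51.8 and 47.8 CPM in ROBO4_KO replicates 1 to 5, and Cd59a, which blocks the membrane attack complex of complement, gave 13.6, 12.4, 19.2, 13.5 and 16.6 CPM in WT replicates 1 to 5 and 40.6, 33.97, 30.2, 30.96 and 29.9 CPM in ROBO4_KO replicates 1 to 5. Neither gene showed overlap (Wdfy1 1.35, adjusted p = 0.000151, and Cd59a 1.2, adjusted p = 8.26e-05, log2 fold changes). In VLDLR_KO, Wdfy1 was at 51.4, 48.1, 50.4, 54.3 and 48.6 CPM.

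A pair of short runs of called genes lay on other chromosomes. A run was drawn from one called gene to another with gaps of at most 2 Mb between their starts, so its share of called genes follows from how it was drawn. On chromosome 7, from 44489938 to 46084212, 7 of 56 tested genes were called, against 1.35% of chromosome 7. Napsa, an aspartic protease, gave 47.7, 49.7, 19.8, 20.3 and 26.04 CPM in WT replicates 1 to 5 and 80.5, 78.1, 82.3, 62.6 and 60.1 CPM in ROBO4_KO replicates 1 to 5, without overlap. It was called higher in the pooled test (adjusted p = 0.0331), with a larger rise before B (1.84) than after B (0.49). Fcgrt, the neonatal Fc receptor that rescues IgG and albumin, had 47.2, 52.2, 72.3, 67.2 and 91.05 CPM in WT replicates 1 to 5 and 116, 121, 93.2, 82.1 and 71.7 CPM in ROBO4_KO replicates 1 to 5, where the groups separate within each form and overlap between forms (log2 fold change 0.68 with SE 0.0954, adjusted p = 0.00555). Rpl13a, another protein of the large ribosomal subunit, fell (log2 fold change -0.42 with SE 0.0795, adjusted p = 0.0279). Napsa lost its call without WT replicate 1, 3, 4 or 5, or ROBO4_KO replicate 1 or 2 (adjusted p 0.0577 to 0.0842). Rpl13a lost its call without WT replicate 1, 2 or 4, or ROBO4_KO replicate 1, 2, 4 or 5 (adjusted p 0.0507 to 0.0949). On chromosome 14, from 69337149 to 69584940, the run held 3 tested genes, all of them called (2.1% over chromosome 14), namely Entpd4, Gm16867 and Entpd4b.

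Among abundant secreted products of macrophages, Spp1 and Apoe were lower in ROBO4_KO. Spp1 encodes osteopontin, a matrix protein and cytokine. It gave 3779.6, 3271, 4282, 3693 and 3559 CPM in WT replicates 1 to 5 and 2512, 2529.5, 1713, 2135 and 2197 CPM in ROBO4_KO replicates 1 to 5. No ROBO4_KO library reached the lowest WT library (log2 fold change -0.71 with SE 0.0886, adjusted p = 0.00297, -0.61 before B and -0.80 after B). Apoe encodes apolipoprotein E, which macrophages load with cholesterol for export. It gave 7669.6, 8078, 6301, 5687 and 7321 CPM in WT replicates 1 to 5 and 3767, 4239.6, 4032, 5543 and 4896 CPM in ROBO4_KO replicates 1 to 5, also without overlap (log2 fold change -0.70 with SE 0.0959, adjusted p = 0.00476, -0.69 before B and -0.70 after B). The VLDLR_KO libraries gave 13696, 24902, 5594, 4513 and 6518 CPM of Apoe, widely spread between the forms.

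Some Fc receptors and other surface or secreted molecules also differed. Fcgr4, an activating IgG receptor, fell from 81.6 ± 7.401 to 56.2 ± 9.49 CPM (log2 fold change -0.49 with SE 0.0800, adjusted p = 0.0126) with no overlap. Lgmn, an asparaginyl protease of the lysosome, had a lower fitted level (log2 fold change -0.30 with SE 0.0526, adjusted p = 0.0163) while its raw means were close, 1113 ± 386 to 1015 ± 318 CPM, both groups being higher after B. Kitl, the ligand of the receptor KIT, had 14.7, 15.9, 33.3, 40.1 and 30.05 CPM in WT replicates 1 to 5 and 66.6, 56.9, 27.5, 27.04 and 34.1 CPM in ROBO4_KO replicates 1 to 5. Its rise was seen within each form and the forms overlapped (log2 fold change 0.89 with SE 0.0991, adjusted p = 0.00123, 0.84 before B and 0.95 after B). Cd34, a sialomucin of progenitors and vessels, rose from 1.03 ± 0.430 to 3.41 ± 1.55 CPM (log2 fold change 1.51 with SE 0.27, adjusted p = 0.0202) and Gdf15, a stress-induced cytokine, fell from 39.8 ± 13.6 to 17.3 ± 4.43 CPM (log2 fold change -1.2 with SE 0.25, adjusted p = 0.0418). Fcgr4 lost its call without WT replicate 1 or 2 (adjusted p 0.0565 to 0.0601). Lgmn lost its call without WT replicate 1 or 2, or ROBO4_KO replicate 2 (adjusted p 0.0682 to 0.0778). Cd34 lost its call without WT replicate 1 or 2, or ROBO4_KO replicate 1 (adjusted p 0.0605 to 0.0953). Gdf15 lost its call without WT replicate 1, 2 or 5, or ROBO4_KO replicate 1, 2, 4 or 5 (adjusted p 0.0529 to 0.137).

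Of 26 gene lists by function, each read against 0.663% called higher and 0.776% called lower over all genes, most held 1 called gene or none. Interferon-stimulated genes, the antiviral programme set off by type I interferon, lay mostly below their WT level. Of 34 tested, 31 had a log2 fold change below 0, against 5564 of 11464 over all genes, and 3 were called, all lower. The list had a median log2 fold change of -0.43 (-0.59 before B and -0.15 after B), against 0.00 for all genes. Its mean log2 level was -0.14 and -0.03 in WT replicates 1 and 2, near -0.09 and -0.1 in ROBO4_KO replicates 1 and 2. In the after-B ROBO4_KO libraries it was -0.55 to -0.23. Rsad2 (viperin) gave 13.7, 20.8, 36.5, 39.99 and 56.4 CPM in WT replicates 1 to 5 and 14.5, 14.1, 9.699, 10.4 and 10.1 CPM in ROBO4_KO replicates 1 to 5. The lowering was largest against WT replicates 3 to 5, and WT replicate 1 lay within the ROBO4_KO range (log2 fold change -1.22 with SE 0.20, adjusted p = 0.0115, -1.63 before B and -0.77 after B). Zbp1, a sensor of Z-form nucleic acid, fell from 5.096 ± 1.21 to 2.29 ± 0.435 CPM (log2 fold change -1.09 with SE 0.19, adjusted p = 0.0183) and Cxcl10, a chemokine for T cells, from 1.84 ± 1.25 to 0.600 ± 0.166 CPM (log2 fold change -1.64 with SE 0.34, adjusted p = 0.0442). Rsad2 lost its call without WT replicate 2, or ROBO4_KO replicate 1 or 2 (adjusted p 0.0515 to 0.0554). Zbp1 lost its call without WT replicate 2, or ROBO4_KO replicate 1 or 2 (adjusted p 0.0585 to 0.0746). Cxcl10 lost its call without WT replicate 1, 2, 4 or 5, or ROBO4_KO replicate 1, 3, 4 or 5 (adjusted p 0.0665 to 0.185).

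Cholesterol synthesis genes, the targets of SREBP2, were tested for 26 members, of which 22 lay below 0 and 2 were called lower, with a median log2 fold change of -0.13 (-0.14 before B and -0.12 after B). Besides Sc5d these were Insig1, which retains SREBP in the endoplasmic reticulum (log2 fold change -0.41 with SE 0.0850, adjusted p = 0.0428). Insig1 lost its call without WT replicate 1, 2, 3 or 4, or ROBO4_KO replicate 2, 3, 4 or 5 (adjusted p 0.0550 to 0.147). In the oxidative stress list, 2 of 17 were called, both higher. These were Nnt and Gclm, the modifier subunit of the enzyme that limits glutathione synthesis, with 61.7, 58.9, 34.3, 36.3 and 37.7 CPM in WT replicates 1 to 5 and 51.5, 46.7, 79.04, 77.05 and 88.2 CPM in ROBO4_KO replicates 1 to 5. Gclm separated within each form and overlapped between forms (log2 fold change 0.44 with SE 0.0558, adjusted p = 0.00307, 0.44 before B and 0.44 after B). In the lipid uptake, storage and efflux list, Apoe was the 1 called gene of 23, and in oxidative phosphorylation Cox7a2 was the 1 of 20.

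In the pathway of the missing receptor 1 gene was called. Of 34 genes of Slit, Robo and netrin signalling, 23 were expressed enough to be tested, without any of Robo1 to Robo4 or Slit3 among them, and 9 lay above and 14 below 0. Pak1, a kinase that acts below Rac and Cdc42, was called, with 74.4, 66.8, 51.8, 49.01 and 54.2 CPM in WT replicates 1 to 5 and 66.2, 70.2, 81, 82.9 and 89.1 CPM in ROBO4_KO replicates 1 to 5. It was higher within each form, and the groups overlapped between the forms (log2 fold change 0.33 with SE 0.0569, adjusted p = 0.0163, 0.40 before B and 0.26 after B). The list had a median log2 fold change of -0.03 (-0.02 before B and 0.00 after B). Of 26 angiogenic and antiangiogenic factors, Pdgfb, a growth factor for the mural cells of vessels, was called higher. It gave 57.8, 60.2, 126, 120.1 and 128 CPM in WT replicates 1 to 5 and 151, 149, 83.2, 70.6 and 74.2 CPM in ROBO4_KO replicates 1 to 5, higher within each form though the forms themselves differed more (log2 fold change 0.32 with SE 0.0544, adjusted p = 0.0163, 0.27 before B and 0.37 after B). Pak1 lost its call without WT replicate 2, or ROBO4_KO replicate 1 or 2 (adjusted p 0.0530 to 0.0682). Pdgfb lost its call without WT replicate 1 or 2 (adjusted p 0.0616 to 0.0830). The series title names Qk and Slc17a5. Qk, an RNA-binding protein that takes part in splicing and circular RNA formation, went from 265 ± 29.2 to 278 ± 13.3 CPM (log2 fold change 0.04 with SE 0.0612, adjusted p = 0.820). Slc17a5, the lysosomal sialic acid exporter, went from 97.2 ± 11.4 to 105 ± 17.9 CPM (log2 fold change 0.17 with SE 0.0578, adjusted p = 0.218). Neither passed the test, and these tables of linear transcripts do not measure the circular form of Slc17a5.

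Of the 21 macrophage identity genes, Cebpb, a transcription factor of myeloid and inflammatory genes, was called lower (log2 fold change -0.77 with SE 0.14, adjusted p = 0.0202, -0.38 before B and -1.14 after B), with a median log2 fold change of -0.07 (-0.01 before B and -0.13 after B) for the list. Cebpb lost its call without WT replicate 1 or 2, or ROBO4_KO replicate 4 (adjusted p 0.0563 to 0.0830). No gene was called among 34 of the cell cycle, of which 29 lay above 0, though their median differed between the forms (-0.41 before B and 0.56 after B). The pooled median of 0.145 rested on single libraries, at -0.042 without WT replicate 2 and -0.076 without ROBO4_KO replicate 5. The mean log2 level of this list was 1.14 and 1.46 in ROBO4_KO replicates 4 and 5. It was -0.91 to -0.2 in ROBO4_KO replicates 1 to 3 and -0.52 to 0.56 in WT. Lists of lysosome (25 tested), MHC class I (14), MHC class II (7), complement (13) and glycolysis genes (22) also held no called gene. All 14 of MHC class I lay below 0. Single genes were called in the lists for endoplasmic reticulum stress (Atf4, -0.27) and Toll-like receptor signalling (Ticam1, -0.23). Atf4 lost its call without WT replicate 1, 2, 3 or 5, or ROBO4_KO replicate 1, 2, 3, 4 or 5 (adjusted p 0.0568 to 0.161). Ticam1 lost its call without WT replicate 1, 2 or 4, or ROBO4_KO replicate 1, 2 or 4 (adjusted p 0.0526 to 0.105). Among 17 tested genes of fibroblasts and matrix, none was called, and their median log2 fold change was -0.52 (-0.09 before B and -1.26 after B, where 2 were called lower). That median rested on single libraries, at -1.73 without ROBO4_KO replicate 2 (1 called lower), -0.23 without ROBO4_KO replicate 1 and -0.30 without WT replicate 3.

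**Figure D4:**
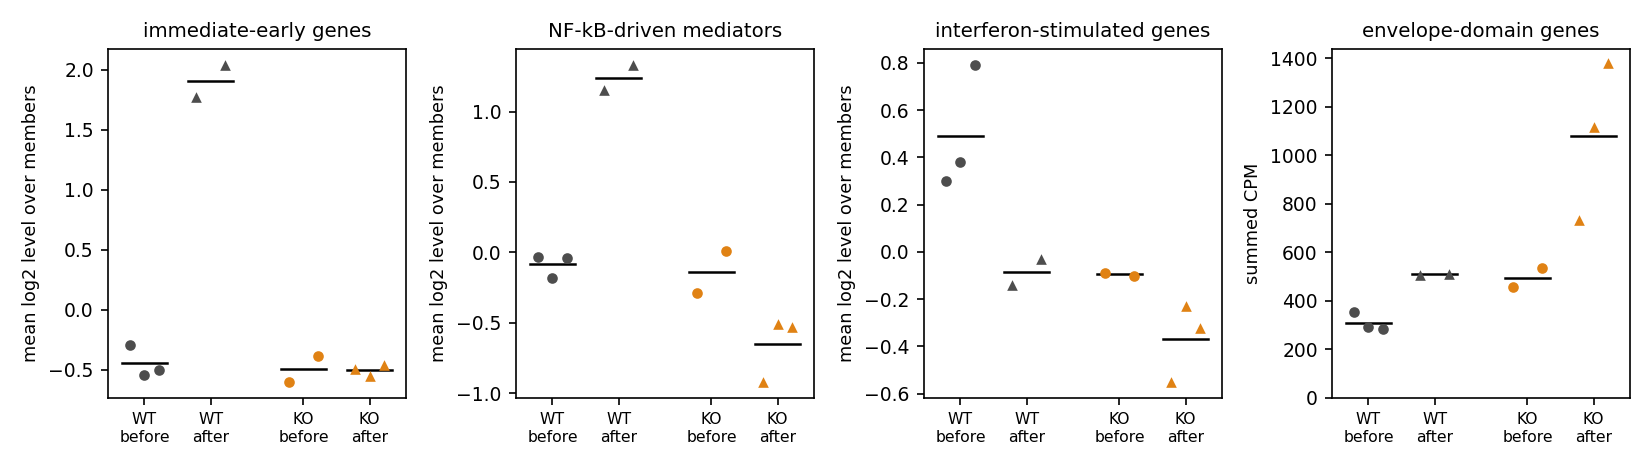
Mean log2 level over the members of 3 lists, relative to the mean over libraries, and summed CPM of the envelope-domain genes (vertical axes) in each WT and ROBO4_KO (KO) library by code form (circles before B, triangles after B), with bars at the means. WT replicates 1 and 2 are the 2 high triangles of the immediate-early list, at 1.77 and 2.04, and WT replicates 3 to 5 are highest for the interferon list.

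The largest dependence on code form was in genes switched on within minutes of a stimulus. Immediate-early genes encode transcription factors and regulators such as Fos, Egr1 and Zfp36 that need no new protein synthesis, and NF-kB targets such as Cxcl2 and Nfkbia follow inflammatory signals. The ROBO4_KO minus WT difference depended on the form for 73 of 11464 genes (0.637%, edgeR interaction test, adjusted p under 0.05), with a more negative difference after B for 69. Without adjustment, 1295 had p under 0.05. With single libraries left out the count was 43, 33, 45 and 46 without WT replicates 1 to 4, and 43, 43, 480 and 43 without ROBO4_KO replicates 1 to 4. Of the 73, 23 were in the immediate-early or NF-kB lists, 15 of 25 tested in the first and 8 of 23 in the second. Within the before-B libraries alone, 63 genes were called (0.55%), and within the after-B libraries alone 132 (1.15%), 105 of them lower.

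Promoters of 4 of these genes are shown to mark matches to motifs through which such signals are known to act, within a short window only. Each is the 250 bases before the start in the RefSeq table of GRCm38.p6, 5′ to 3′, with capitals for the cyclic AMP response core TGACGT, the serum response element (CArG box) and the NF-kB motif, searched on both strands.
Fos, chr12:85473640-85473889, plus strand: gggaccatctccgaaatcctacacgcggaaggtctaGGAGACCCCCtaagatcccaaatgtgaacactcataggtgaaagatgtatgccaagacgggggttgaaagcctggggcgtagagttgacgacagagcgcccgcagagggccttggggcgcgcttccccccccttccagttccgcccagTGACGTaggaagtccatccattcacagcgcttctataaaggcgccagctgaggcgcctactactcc
Zfp36, chr7:28379229-28379478, minus strand: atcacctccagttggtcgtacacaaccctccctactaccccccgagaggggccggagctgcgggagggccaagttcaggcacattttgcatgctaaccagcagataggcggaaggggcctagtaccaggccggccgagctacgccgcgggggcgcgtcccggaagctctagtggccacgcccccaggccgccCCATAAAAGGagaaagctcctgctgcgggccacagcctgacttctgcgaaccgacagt
Nfkbia, chr12:55492648-55492897, minus strand: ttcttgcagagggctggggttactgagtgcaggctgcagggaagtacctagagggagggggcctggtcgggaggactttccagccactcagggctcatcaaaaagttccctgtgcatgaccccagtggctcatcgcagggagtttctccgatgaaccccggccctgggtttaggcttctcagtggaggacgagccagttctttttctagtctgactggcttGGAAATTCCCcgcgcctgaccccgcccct
Cxcl2, chr5:90903649-90903898, plus strand: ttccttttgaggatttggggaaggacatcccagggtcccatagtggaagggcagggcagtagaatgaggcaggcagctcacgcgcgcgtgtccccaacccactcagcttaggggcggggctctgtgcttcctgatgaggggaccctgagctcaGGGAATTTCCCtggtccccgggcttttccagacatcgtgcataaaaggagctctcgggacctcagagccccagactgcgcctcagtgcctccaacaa

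Fos held TGACGT 66 bases before its start and an NF-kB motif match 214 bases before it, Zfp36 a CArG box at 58, Nfkbia an NF-kB motif at 29, and Cxcl2 a pair of overlapping NF-kB matches at 97 and 96 bases. Over all 32851 promoter windows of this length, TGACGT was found in 6.47%, the CArG box in 1.47% and the NF-kB motif in 3.9%. The window of Tnf, also among the genes below, held none of the 3. A match describes the letters and is not a measured binding site.

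In the libraries, Fos gave 859, 949, 42.6, 36.02 and 32.3 CPM in WT replicates 1 to 5 and 28.01, 36.2, 52.9, 54.6 and 56.3 CPM in ROBO4_KO replicates 1 to 5. WT replicates 1 and 2 stood far above the other 8 libraries, which lay between 28 and 56.3 CPM in both genotypes. The difference was -4.05 after B and -0.20 before B on the log2 scale (interaction -3.85, adjusted p = 3.82e-06). Cxcl2, a neutrophil chemokine, gave 128, 183, 0.418, 0.743 and 0.855 CPM in WT replicates 1 to 5 and 1.23, 0.935, 0.780, 1.25 and 1.03 CPM in ROBO4_KO replicates 1 to 5, with the same 2 libraries apart from the other 8. It was called in the pooled test (-5.86, adjusted p = 0.0163), as was Fosb, a partner of Jun in the AP-1 factor (-6.26, adjusted p = 0.0154), and both turn positive before B (0.68 and 0.44). Cxcl2 lost its call without WT replicate 1 or 2, or ROBO4_KO replicate 4 or 5 (adjusted p 0.0553 to 0.155). Fosb lost its call without WT replicate 1 or 2, or ROBO4_KO replicate 4 or 5 (adjusted p 0.0543 to 0.161). Zfp36, which destabilises cytokine mRNAs, had interaction -3.3, Tnf -4.51, Ier2 -2.96, Nfkbia, the inhibitor of NF-kB, -3.3 and Egr1 -5.69. The mean log2 level of the immediate-early list, relative to its mean over libraries, was 1.77 and 2.04 in WT replicates 1 and 2 and -0.60 to -0.29 in the others. For the NF-kB list these were 1.15 and 1.33 in WT replicates 1 and 2, and -0.92 to -0.51 in the after-B ROBO4_KO libraries, the lowest of all. What set WT replicates 1 and 2 apart was not tested.

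**Figure D5:**
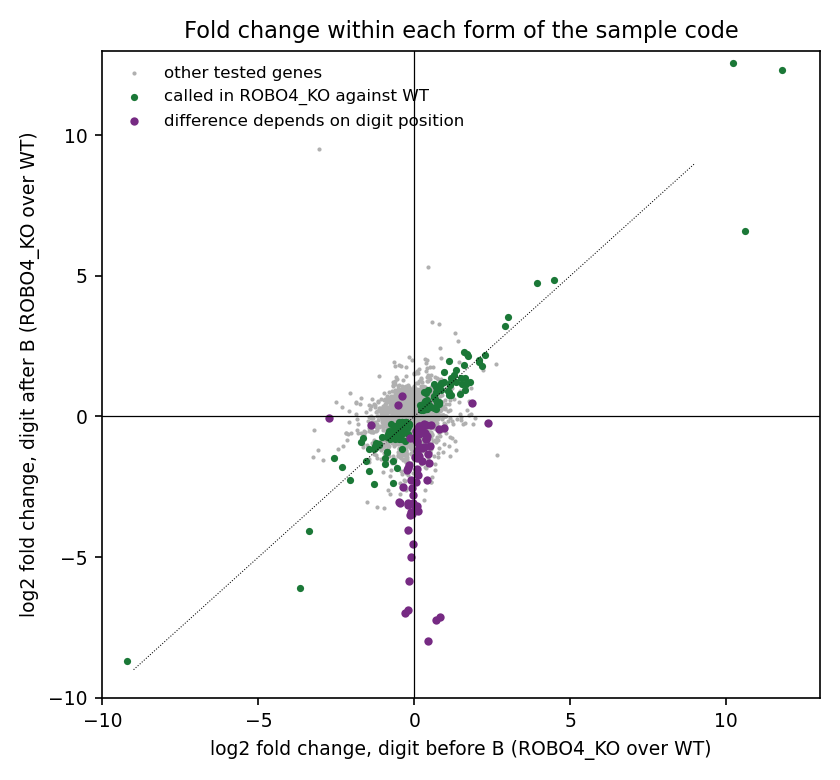
Log2 fold change of ROBO4_KO over WT within the before-B libraries (horizontal axis) against that within the after-B libraries (vertical axis), each point a gene, called genes in green, genes whose difference depends on the form in purple and equal values on the dotted line. Fos lies at -0.20 before B and -4.05 after B, while Cadm1 lies at 2.25 and 2.19.

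Il1a, the interleukin 1 alpha gene, was called lower and had 16.9, 18.3, 3.08, 2.92 and 1.98 CPM in WT replicates 1 to 5 and 1.603, 0.571, 3.4, 3.61 and 3.03 CPM in ROBO4_KO replicates 1 to 5. WT replicates 1 and 2 were again highest, and among the before-B libraries both ROBO4_KO values were below the 3 WT values (log2 fold change -1.96 with SE 0.27, adjusted p = 0.00509, -1.29 before B and -2.39 after B). Plaur, the urokinase receptor of migrating cells, fell (log2 fold change -0.32 with SE 0.0608, adjusted p = 0.0258). Plaur lost its call without WT replicate 1, 2 or 3, or ROBO4_KO replicate 2 or 4 (adjusted p 0.0689 to 0.101). The NF-kB list had a median log2 fold change of -0.45 (0.04 before B and -0.92 after B) and the immediate-early list a median log2 fold change of -1.33 (-0.11 before B and -2.55 after B), so that the pooled medians were carried by the after-B libraries.

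ROBO4_KO was next set beside VLDLR_KO. These comparisons share libraries with that against WT (the ROBO4_KO libraries, or the WT libraries), so the values are given side by side with no test of their likeness. Between ROBO4_KO and VLDLR_KO, 1868 of 11668 genes were called (16%), 985 higher and 883 lower in ROBO4_KO, and between VLDLR_KO and WT 1957 were (16.8%).

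Several genes also differed from WT in VLDLR_KO, in the same direction. In the order ROBO4_KO minus WT, VLDLR_KO minus WT and ROBO4_KO minus VLDLR_KO, the log2 fold changes of Cadm1 were 2.22, 1.87 and 0.35 (adjusted p = 0.0123 for the last). Those of Cox7a2 were -2.04, -1.89 and -0.12 (adjusted p = 0.718) and those of Nnt 1.0, 1.02 and -0.04 (adjusted p = 0.829). Wdfy1 gave 1.35, 1.33 and 0.03, Mcam 1.93, 2.27 and -0.32 and Gm43828 3.07, 3.32 and -0.25, with no call for the last difference in these 3 genes. For these genes both knockouts lay on the same side of WT.

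Other genes differed from both references. Rpl29 gave -8.91, 0.29 and -9.16 in the same order (adjusted p = 2.79e-12 for the last), Gm8210 11.97, 0.50 and 11.46 (2.3e-12) and Lrmda -3.72, 0.28 and -3.99 (2.91e-09). Dusp7 gave -1.06, 0.10 and -1.19 (3.8e-06), Abhd14b -1.56, 0.05 and -1.56 (2.6e-05) and Alas1 -1.34, 0.01 and -1.35 (9.68e-05). On other chromosomes, Emc10 gave -0.80, 0.44 and -1.18 (0.000433) and Zfp932 -0.76, 0.07 and -0.84 (4.23e-05). Spp1 gave -0.71, -0.16 and -0.58 (0.0108). Apoe gave -0.70, 0.59 and -1.15 (0.0443). Its VLDLR_KO levels, given above, were far higher before B and overlapped those of ROBO4_KO after B.

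At the level of transcripts, 37 of 27148 were called (0.136%), 19 higher and 18 lower, from 33 genes. Both main Rpl29 transcripts fell, NM_001324533.1 from 343 ± 35.5 to 0.586 ± 0.242 CPM and NM_009082.3 from 51.4 ± 5.49 to 0.0104 ± 0.0233 CPM. Of Cadm1, NM_207675.2 rose from 23.7 ± 5.398 to 219 ± 38.4 CPM (log2 fold change 3.29, adjusted p = 2.88e-06) and NM_018770.3 from 116 ± 26.5 to 391 ± 99.2 CPM (1.86, adjusted p = 3.16e-05), with no test of the difference between the isoforms. Of Wdfy1, NM_001111279.1 rose from 10.8 ± 1.89 to 50.9 ± 3.698 CPM (2.22), more than the gene as a whole. Of the called transcripts, 31 belonged to called genes. Among the rest, chosen after values were seen, the Ssbp4 transcript XM_006509792.3 was at 9.81 ± 3.37 CPM in WT and 0 in all ROBO4_KO libraries, and the Myo1e transcript XM_011242814.1 rose from 298 ± 41.9 to 476 ± 65.2 CPM (adjusted p = 0.00734). No main transcript of Qk or Slc17a5 was called. The number of called transcripts was 21 without WT replicate 1, 24 without WT replicate 3, 3 in the before-B libraries alone and 528 by DESeq2. The counts of transcripts are estimates that divide shared reads among isoforms.

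The authors' deposited table compares WT with ROBO4_KO separately within each code form and gives log2 ratios of WT over ROBO4_KO with DESeq2 q-values. For Cadm1 the authors' deposited table has -2.26 before B (q = 3.41e-63) and -2.19 after B (q = 6.54e-181). For Rpl29 the authors' deposited table has 9.29 (q = 1.83e-195) and 8.74 (q = 4.09e-303). For Cxcl2 the authors' deposited table has -0.69 before B (q = 0.994) and 7.24 after B (q = 3.07e-151), the same split by form.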

How the data were processed

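Messenger RNA libraries were made with a SMARTER mRNA-Seq kit and read as pairs on a BGISEQ-500, per the labels' protocols, and HISAT, Bowtie2 and GRCm38.p6 are listed per the submitters' processing notes. Versions, the counting tool and strand use are not given in the sources used here. The authors deposited estimated counts per gene and per transcript (92.6% of gene counts and 48.3% of transcript counts are whole). Their tables also hold log2 ratios and DESeq2 q-values of WT over ROBO4_KO within each code form, per the file headers.

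Here counts were rounded and genes kept by edgeR's filterByExpr with genotype as the group, leaving 11464 of 16886 genes and 27148 of 54327 transcripts. TMM scaling and edgeR 4.0.16's quasi-likelihood test (R 4.3.3) with code form as covariate followed, and a gene is called at a Benjamini-Hochberg adjusted p under 0.05. SE is the fitted log2 fold change divided by the root of F. CPM uses TMM-scaled totals. The comparison with VLDLR_KO used all 15 libraries. Alternatives were limma-voom 3.58.1, DESeq2 1.42.0, other filters, scalings and designs, and each library left out.

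Named genes were those of the knockouts and the series title, the 12 largest called rises and falls with the same sign in both forms and at least 1 CPM, the 5 most abundant called genes in each direction, up to 4 called members of each list by p, up to 10 called genes within 10 Mb of Robo4, up to 6 that depend on code form or differ from VLDLR_KO, and up to 6 transcripts. Among the genes so chosen, 1 is not reported here. Other genes named were chosen after their values were seen. Members and lists were chosen with earlier results of these data known. Promoters are from RefSeq tables of GRCm38.p6. The scripts were tested on simulated data. At 18337290 to 19005966 counts per library, 3 counts are 0.158 to 0.165 CPM, and floors cover counting error only.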

Additional observations from a re-analysis of the deposited data

Results flagged for a closer look

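In 3 of 166 groups of 5 libraries checked, 1 library stood apart from the other 4, and chance alone marks about 1 in 20 groups. Il18, the interleukin 1 family cytokine on chromosome 9, was at 6.53 CPM in WT replicate 3, the WT library with the most fibroblast RNA, against 9.41 to 9.93 CPM in the other 4 WT libraries. Lrmda was at 16.4 CPM in WT replicate 5, against 13.9 to 14.5 CPM in the other 4. Emc10 was at 29.9 CPM in ROBO4_KO replicate 1, against 37.1 to 39.5 CPM in the other 4. Each value lay on the side of its group away from the other genotype.

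For 10 named genes the ROBO4_KO minus WT difference depended on code form by edgeR's interaction test (adjusted p under 0.05), with a lower log2 difference after B than before B. Napsa, the protease on chromosome 7, rose in both forms, by 1.36 less after B (interaction -1.36). The other 9 belong to the immediate-early and NF-kB lists. They were Ier2 (-2.96), Zfp36 (-3.30), Nfkbia (-3.30), Fos (-3.85), Tnf (-4.51), Egr1 (-5.69), Cxcl2 (-7.92), Il1b (-7.98) and Fosb (-8.43). The after-B WT values of these genes come from WT replicates 1 and 2 alone.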

How the results depend on the processing

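The 165 genes called in ROBO4_KO against WT became 40 with no covariate, 75 in a fit of all 15 libraries, 380 by DESeq2, 63 in the before-B libraries alone and 40 without WT replicates 1 and 2 (added after the data were seen). The fold changes of the last pair both come from the before-B libraries. Leaving out each library gave 81 to 236. The 73 genes that depend on code form became 165 by DESeq2, and 33 to 480 with each library left out, the highest without ROBO4_KO replicate 3. The 1868 genes called against VLDLR_KO became 888 with no covariate and 1144 with only the 10 knockout libraries, and 1298 to 2041 with each library left out. The 37 transcripts became 528 by DESeq2, 3 before B and 17 without WT replicates 1 and 2, and 21 to 41 with each library left out. A replicate block of code form and digit gave 28 genes, 1141 against VLDLR_KO and 7 transcripts. Deviations of WT and ROBO4_KO libraries with the same form and digit had correlations of -0.28, -0.23, -0.47 and -0.37. Each deviation is from a mean of very few libraries, so whether a shared digit marks a shared batch cannot be told from them. For each of these changes the cause was not tested. TMM against RLE scaling, limma-voom and other filters on low counts left the gene counts within 1.5 times. Of 88 named called genes, 30 kept their call with no covariate, 86 by DESeq2, 31 before B alone, 41 after B alone, 24 under the block and 27 without WT replicates 1 and 2.

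Fosb and Cxcl2 turned positive before B (0.44 and 0.68) and without WT replicates 1 and 2 (0.44 and 0.68). The latter fit also takes its fold changes from the before-B libraries, so it is not a separate result. Uncalled genes also changed sign. Vldlr was at -0.165 with no covariate, -0.023 in all 15 libraries, -0.024 by limma-voom and -0.227 after B alone, and ranged from -0.57 to 0.455 with each library left out. Qk was at -0.053 after B and -0.007 to 0.091 with each library left out. The sum of Aph1b and Aph1c was at -0.132 after B and -0.033 to 0.214 with each library left out. Robo4 itself was too low to be tested.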
